A study of Mus musculus with 6 samples.

Results

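The insulin-like growth factor (IGF) axis was described in mouse embryonic fibroblasts (MEFs) through 10 genes chosen by name: the ligands Igf1 and Igf2, the receptors Igf1r and Igf2r, and the binding proteins Igfbp2, Igfbp3, Igfbp4, Igfbp5, Igfbp6 and Igfbp7. All 10 were found among the 29955 genes of the deposited table, and all 10 had enough reads to be tested. RNA-seq was compared between 3 libraries of Rnf40+/+ MEFs and 3 libraries of Rnf40-/- MEFs, all at passage 3. RNF40 is part of the ubiquitin ligase that places monoubiquitin on histone H2B, and the comparison asks which transcripts depend on it. In the conditional mouse line, exons 3 and 4 of Rnf40 are flanked by loxP sites, and a tamoxifen-inducible Cre recombinase (CreERT2) is expressed from the ubiquitous Rosa26 locus. The study took its MEFs from embryos that were homozygous for the floxed allele and carried this Cre. For the knockout, they were kept in 250 nM 4-hydroxytamoxifen (4-OHT) for 5 days and then for 3 days without it. The sources used here do not state whether the Rnf40+/+ cells received 4-OHT, so the deletion and the agent with the Cre activity it induces cannot be told apart. They also do not state that the 3 libraries of a genotype came from separate embryos, so p-values measure only the spread between these libraries.

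IGF1 and IGF2 are secreted growth factors that signal through IGF1R, a receptor tyrosine kinase that activates the PI3K-AKT and MAP kinase cascades. IGF2R, which is also the cation-independent mannose 6-phosphate receptor, carries IGF2 to lysosomes for degradation and does not relay a growth signal. The IGFBPs hold IGFs in the medium and matrix with high affinity, except IGFBP7, which binds them weakly, and proteases such as PAPP-A release the ligand by cutting certain IGFBPs. Fibroblasts are a classical source of most of these proteins, and Igf2 is a paternally expressed imprinted gene of embryonic tissue.

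The measured unit was the normalized count, which is the number of reads of a gene divided by 1 size factor per library. The libraries held between 17053436 and 26344170 reads on genes, and 3 reads, taken as the limit of detection, corresponded to 2.40 to 3.58 normalized counts. This limit covers counting error only, and the members were far above it. Rnf40 itself was left at 40.5% of its Rnf40+/+ level. Cell type markers were called by the rule given below for the members, by which 24.1% of all genes tested were lower and 23.3% higher. Of the fibroblast markers, 9 of 9 were tested and 7 were lower. Their summed normalized count ran from 354316 to 413828 in Rnf40+/+ and from 185357 to 199435 in Rnf40-/- libraries. The summed macrophage markers ran from 7746 to 14523 and from 4549 to 5161, with 8 of 14 tested markers lower and 1 higher, and the highest sum was that of Rnf40+/+ replicate 3. Among markers of other cells, 3 of 5 endothelial genes tested were higher and 1 lower. Of the higher ones, Cdh5 and Pecam1 lay near the limit of detection in Rnf40+/+ libraries. Further, 1 of 2 adipocyte genes was higher, and 2 of 2 skeletal muscle, 2 of 2 chondrocyte and 1 of 3 neural genes were lower. The 3 epithelial genes tested did not pass the test, the hepatic genes had too few reads to be tested, and Myod1 and Adipoq, which define muscle and fat cells, were at 0 in every library. Rnf40+/+ replicate 1 stood apart by reads of the Y-linked genes Ddx3y (81.2 normalized counts, at most 7.14 elsewhere) and Eif2s3y (39.4, at most 2.04 elsewhere). Kdm5d was low (5.97, at most 1.04 elsewhere), and Uty was less apart (20.3, at most 13.6 elsewhere). The sex-linked Xist was high in every library, with 9345 in this one. It ran from 8741 to 9616 in Rnf40+/+ and from 7178 to 9442 in Rnf40-/- libraries. In bulk RNA, fewer cells of a type and less RNA per cell cannot be told apart.

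In Rnf40-/- MEFs the transcripts of the ligand IGF2 and of 5 of the 6 binding proteins were lower, and that of the IGF2-clearing receptor was higher. Of the 10 genes, 6 were lower (Igf2, Igfbp2, Igfbp4, Igfbp5, Igfbp6 and Igfbp7), 1 was higher (Igf2r) and 3 did not pass the test (Igf1, Igf1r and Igfbp3). The test was limma on log2(normalized count + 1) with a Benjamini-Hochberg adjusted p under 0.05, a rule by which 24.1% of all 16378 genes tested were lower and 23.3% higher, 47.4% in all. The median log2 fold change (log2FC) was -0.57 over the 10 genes and -0.0035 over all genes tested. Igf2, Igfbp4 and Igfbp5 also met the criteria of the study for downregulated genes (mean above 15, p under 0.05, log2FC below -1), which 5.7% of all genes met. These cutoffs were applied here to p-values and log2FC of limma, whereas the study used DESeq, so these are not the study's own calls. None of the 10 met the matching criteria for upregulated genes, which 4.25% of all genes met, for 9.95% in either direction. The same 7 genes were those whose 3 values in one genotype did not overlap the 3 in the other, 6 of them lower and 1 higher, as was true of 28.7% and 27.8% of all genes, or 56.5% together. Of the 9 fibroblast markers, 7 were lower alongside these genes (log2FC from -2.26 to -0.26), and Dcn (0.20) and Lum (-0.57) did not pass the test. The part of fibroblasts in the falls was not tested.

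**Figure D1:**
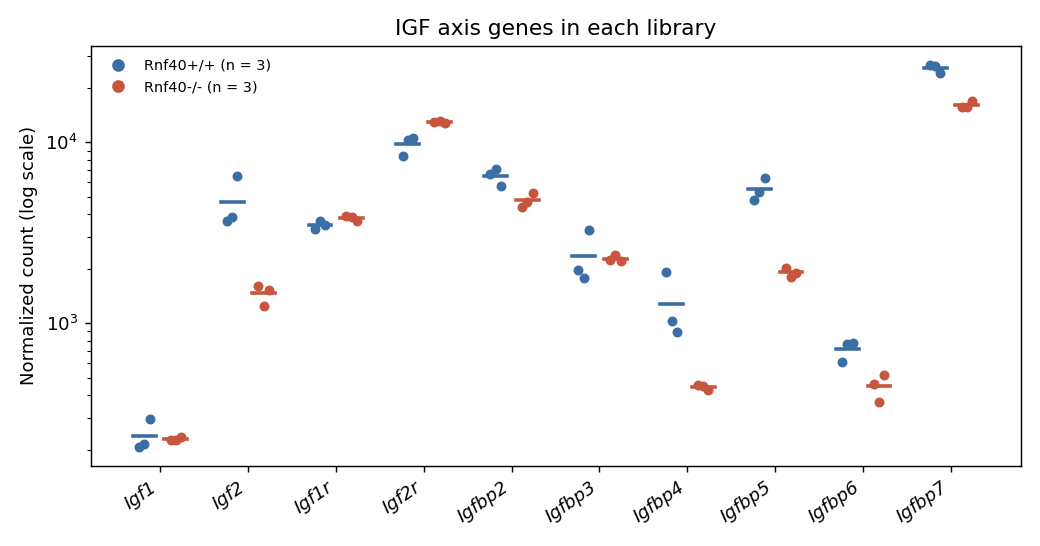
Normalized count (log scale) of the 10 genes in each library, with Rnf40+/+ libraries in blue, Rnf40-/- libraries in red, and a bar at the mean of 3. For Igf2, Igfbp4 and Igfbp5 every red point lies far below every blue point, while the red points of Igf2r lie above the blue ones.

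The promoters of 4 members whose transcripts changed are shown, from 250 bases before to 50 bases after the annotated start. The sequences are those of RefSeq (GRCm38.p6), where the 10 genes matched 14 promoters, 4 of them of Igf2 and 2 of Igfbp2. Shown are Igfbp4 and Igfbp5, the binding proteins with the largest falls, Igfbp7, the most abundant one, and Igf2r, the gene that rose. Capitals mark each match of TATAAA or GGGCGG on either strand, in 5′ to 3′ direction of the gene.
Igfbp4 (chr11:99040994-99041293, plus strand): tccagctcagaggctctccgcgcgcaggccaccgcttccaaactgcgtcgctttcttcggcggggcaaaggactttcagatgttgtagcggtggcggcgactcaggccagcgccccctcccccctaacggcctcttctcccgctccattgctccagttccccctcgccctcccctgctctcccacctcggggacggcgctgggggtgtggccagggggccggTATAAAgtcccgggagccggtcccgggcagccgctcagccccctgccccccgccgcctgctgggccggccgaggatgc
Igfbp5 (chr1:72874816-72875115, minus strand): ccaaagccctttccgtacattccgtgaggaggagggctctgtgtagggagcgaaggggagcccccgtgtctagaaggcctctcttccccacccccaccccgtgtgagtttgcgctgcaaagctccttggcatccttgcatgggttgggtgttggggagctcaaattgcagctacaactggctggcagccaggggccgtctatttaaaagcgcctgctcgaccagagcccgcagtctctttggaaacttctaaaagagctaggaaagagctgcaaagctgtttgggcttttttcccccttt
Igfbp7 (chr5:77407996-77408295, minus strand): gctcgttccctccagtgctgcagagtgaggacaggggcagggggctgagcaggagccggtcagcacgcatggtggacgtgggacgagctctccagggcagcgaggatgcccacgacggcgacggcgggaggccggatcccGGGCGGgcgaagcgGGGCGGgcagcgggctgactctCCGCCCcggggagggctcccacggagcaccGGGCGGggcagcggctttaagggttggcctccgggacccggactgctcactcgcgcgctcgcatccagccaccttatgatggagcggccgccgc
Igf2r (chr17:12769657-12769956, minus strand): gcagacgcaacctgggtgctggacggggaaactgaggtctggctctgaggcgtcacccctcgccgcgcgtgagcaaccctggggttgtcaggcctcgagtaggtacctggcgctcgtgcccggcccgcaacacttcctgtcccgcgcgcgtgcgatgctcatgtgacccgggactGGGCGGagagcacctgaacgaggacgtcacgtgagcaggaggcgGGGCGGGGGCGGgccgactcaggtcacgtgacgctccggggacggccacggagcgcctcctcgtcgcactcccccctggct
The Igfbp4 promoter held 1 TATAAA, 28 bases before the start, the Igfbp7 promoter 4 GGGCGG and the Igf2r promoter 3 GGGCGG, while the Igfbp5 promoter held neither. Among all 32817 promoters of the same length, 13.6% held TATAAA and 35.6% held GGGCGG. Of the promoters not shown, TATAAA was also found in Igfbp6, and GGGCGG in Igf1r, in 2 of 4 promoters of Igf2 and in 1 of 2 of Igfbp2. CCAAT, present in 37.4% of all promoters, was found in Igf1, Igfbp6 and 1 promoter of Igf2, and TGANTCA, present in 7.81%, in Igf1 and 1 promoter of Igfbp2. Genes that fell were thus found with and without each of these letters.

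Igf2 (ENSMUSG00000048583, chromosome 7 of mm9, 149836673 to 149852721, minus strand), the embryonic growth factor, had the lowest log2FC of the 10 genes, with an interval that overlapped those of Igfbp4 and Igfbp5. It had 3664, 3856 and 6542 normalized counts in Rnf40+/+ against 1610, 1252 and 1523 in Rnf40-/- MEFs. The genotypes did not overlap, but Rnf40+/+ replicate 3 lay far above the other two. The means were 4687 ± 1609 and 1462 ± 187 (SD, n = 3 each), so 31.2% was left, and the log2FC was -1.64 ± 0.18 (SE, adjusted p = 1.5e-05 by limma). Without Rnf40+/+ replicate 3 its log2FC was -1.37 (adjusted p = 4.06e-08 by limma), and Igfbp4 (-1.65) and Igfbp5 (-1.41) were then lower. The antisense gene Igf2as, which shares 98 bases of exon with Igf2 on the opposite strand, had only 10.7 to 28.7 normalized counts in any library, and its log2FC of -0.12 did not pass the test (adjusted p = 0.833 by limma).

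H19, the maternally expressed noncoding RNA 72624 bases from Igf2 on chromosome 7, also fell and was also highest in Rnf40+/+ replicate 3. It had 1563, 1277 and 4256 normalized counts in Rnf40+/+ and 309, 177 and 247 in Rnf40-/- libraries, a log2FC of -3.09 ± 0.35 (SE, adjusted p = 1.95e-05 by limma), and -2.56 without Rnf40+/+ replicate 3.

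Igf1 (ENSMUSG00000020053, chromosome 10, 87321010 to 87399792, plus strand), the main postnatal ligand, was the lower ligand, with 33.6 normalized counts per kilobase of transcript against 993 for Igf2 in Rnf40+/+ MEFs. Its normalized counts were 208, 215 and 295 in Rnf40+/+ and 225, 225 and 234 in Rnf40-/- libraries. The Rnf40-/- values lay inside the Rnf40+/+ range. The log2FC was -0.05 with a 95% interval from -0.36 to 0.26 (adjusted p = 0.794 by limma), and it turned to 0.11 without Rnf40+/+ replicate 3 (adjusted p = 0.499 by limma). Macrophages are another known source of IGF1, and the library with the most Igf1 was also the one with the largest sum of macrophage markers. It also had the largest sum of fibroblast markers (413828, against 354316 and 362808 in the other Rnf40+/+ libraries). Of its macrophage sum of 14523, Lyz2 alone made up 7440. Among the macrophage markers, C1qa, C1qb, C1qc, Lyz2, Tyrobp, Ctss, Mpeg1 and Fcer1g were lower (log2FC from -1.86 to -0.71), Ptprc was higher (1.37), and Csf1r, Emr1, Mrc1, Itgam and Laptm5 did not pass the test. The part of macrophages or fibroblasts in the values of Igf1, Igf2 and Igfbp3, each highest in replicate 3 of Rnf40+/+, was not tested.

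Of the receptors, Igf2r was called and Igf1r was not. Igf2r (ENSMUSG00000023830, chromosome 17, 12875272 to 12962530, minus strand) rose, from 8375, 10251 and 10598 normalized counts in Rnf40+/+ to 12999, 13177 and 12729 in Rnf40-/- libraries. The Rnf40-/- values were nearly the same as one another and all above the Rnf40+/+ range, whose lowest value was that of replicate 1. The means were 9741 ± 1196 and 12968 ± 226 (SD, n = 3 each), or 133% of the Rnf40+/+ level, and the log2FC was 0.42 ± 0.09 (SE, adjusted p = 0.00166 by limma). Igf1r (ENSMUSG00000005533, chromosome 7, 75097713 to 75371484, plus strand), the signalling receptor, had 3326, 3679 and 3475 normalized counts in Rnf40+/+ and 3919, 3858 and 3667 in Rnf40-/- libraries. The highest Rnf40+/+ value thus lay just above the lowest Rnf40-/- value. Its log2FC of 0.13 did not pass the test (95% interval from -0.01 to 0.27, adjusted p = 0.123 by limma).

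Airn, the noncoding RNA that overlaps Igf2r in antisense and silences it on the paternal allele, had 60.9, 35.7 and 56.7 normalized counts in Rnf40+/+ and 97.9, 71.0 and 74.6 in Rnf40-/- libraries. The log2FC of Airn was 0.68 (adjusted p = 0.0365 by limma). The call was lost without Rnf40+/+ replicate 2 (0.44) and without each Rnf40-/- library in turn (0.54, 0.77 and 0.73), where the limma adjusted p lay between 0.0542 and 0.153. It was also lost with the Wald test of DESeq2 (adjusted p = 0.0504) and with no gene filter (adjusted p = 0.0577 by limma).

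**Figure D2:**
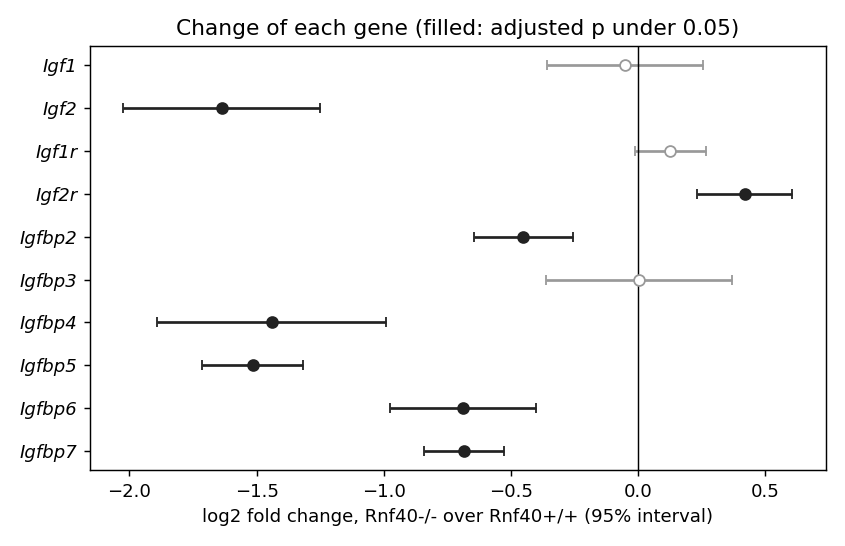
log2 fold change (Rnf40-/- over Rnf40+/+) of the 10 genes with the 95% interval of limma, where filled points have an adjusted p under 0.05. Igf2, Igfbp4 and Igfbp5 lie below -1, Igf2r lies above 0, and the intervals of Igf1, Igf1r and Igfbp3 cover 0.

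Among the binding proteins, Igfbp5 and Igfbp4 had the largest falls. Igfbp5 (ENSMUSG00000026185, chromosome 1, 72904506 to 72921458, minus strand) codes for a matrix-bound IGFBP that is prominent in mesenchymal and bone cells. It had 4824, 5323 and 6308 normalized counts in Rnf40+/+ and 2016, 1809 and 1900 in Rnf40-/- libraries, with a wide gap between the genotypes. The means were 5485 ± 755 and 1908 ± 104 (SD, n = 3 each), so 34.8% was left, and the log2FC was -1.52 ± 0.09 (SE, adjusted p = 1.51e-07 by limma).

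Igfbp4 (ENSMUSG00000017493, chromosome 11, 98902558 to 98913969, plus strand) codes for the IGFBP that PAPP-A cuts when IGF is bound, and it is known as an inhibitor of IGF action. It had 1907, 1031 and 899 normalized counts in Rnf40+/+ and 458, 452 and 426 in Rnf40-/- libraries. Rnf40+/+ replicate 1, the library with the most Ddx3y and Eif2s3y, was the high one, and the genotypes did not overlap with or without it. The means were 1279 ± 548 and 445 ± 17.0 (SD, n = 3 each), and the log2FC was -1.44 ± 0.21 (SE, adjusted p = 0.000137 by limma). Without Rnf40+/+ replicate 1 it was -1.11 (adjusted p = 1.33e-06 by limma).

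Igfbp7, Igfbp6 and Igfbp2 fell by less. Igfbp7 (ENSMUSG00000036256, chromosome 5, 77778265 to 77837070, minus strand), whose product binds IGFs weakly and lies in the vascular basement membrane, had 26710, 26542 and 24152 normalized counts in Rnf40+/+ and 15658, 15709 and 16811 in Rnf40-/- libraries. The libraries of a genotype were close together, and the fall to 62.2% gave a log2FC of -0.68 ± 0.07 (SE, adjusted p = 1.12e-05 by limma). Of the exonic bases of Igfbp7, 85 are shared with Polr2b and a second annotated gene on the opposite strand, and the strand setting of the counting is not stated. Igfbp6 (ENSMUSG00000023046, chromosome 15, 101974793 to 101979942, plus strand), which prefers IGF2 over IGF1, had 611, 772 and 779 normalized counts in Rnf40+/+ and 462, 368 and 516 in Rnf40-/- libraries. Its gap between genotypes was narrow beside the spread within them, and its log2FC was -0.69 ± 0.13 (SE, adjusted p = 0.00106 by limma).

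Igfbp2 (ENSMUSG00000039323, chromosome 1, 72871077 to 72899048, plus strand), the main IGFBP of fetal tissue, had 6677, 7157 and 5764 normalized counts in Rnf40+/+ and 4388, 4689 and 5239 in Rnf40-/- libraries. It had the smallest called fall, -0.45 ± 0.09 (SE, adjusted p = 0.00134 by limma), with 73.0% left. Igfbp2 and Igfbp5 are tail-to-tail neighbours with 5457 bases and no annotated gene between them. Of this pair, Igfbp5 had a 95% interval from -1.71 to -1.32 and Igfbp2 one from -0.65 to -0.26, so the intervals of the neighbours were apart. The difference itself was not tested.

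Igfbp3 (ENSMUSG00000020427, chromosome 11, 7106089 to 7113926, minus strand), the main carrier of IGFs in blood, was the binding protein that did not pass the test. It had 1980, 1783 and 3255 normalized counts in Rnf40+/+ and 2233, 2369 and 2195 in Rnf40-/- libraries. Rnf40+/+ replicate 3 lay above all Rnf40-/- libraries, and the other Rnf40+/+ libraries lay below them. The log2FC was 0.01, with a 95% interval from -0.36 to 0.37 (adjusted p = 0.983 by limma). Without Rnf40+/+ replicate 3 it was 0.27 and passed the test (adjusted p = 0.00703 by limma), so 1 library decided this value. The neighbour of Igfbp3 on chromosome 11, Igfbp1, a product of liver and decidua, had at most 3.58 normalized counts in any library, which is the limit of detection.

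Levels of different genes were compared per length, as the normalized count per kilobase of the longest coding transcript. In Rnf40+/+ MEFs Igfbp7 was highest at 21271 ± 1180 per kilobase, followed by Igfbp2 at 4998 ± 541 (SD, n = 3). Igf2r (1096), Igf2 (993), Igfbp3 (966), Igfbp5 (913) and Igf1r (836) came next with overlapping ranges between neighbours, then Igfbp6 (648) and Igfbp4 (611), which overlapped each other, and Igf1 at 33.6 ± 6.83. The place of Igfbp4 is uncertain, as it had 911, 492 and 429 per kilobase in the Rnf40+/+ libraries. The first of these values, of replicate 1, was above every Rnf40+/+ value of Igf1r (795 to 880). In Rnf40-/- MEFs Igfbp7 (13239 ± 537), Igfbp2 (3651 ± 330) and Igf2r (1459 ± 25.4) kept the first 3 places without overlap. Igfbp3 (936) and Igf1r (912) overlapped each other, as did Igfbp6 (404) with Igfbp5 (318) and Igfbp5 with Igf2 (310), and Igfbp4 (213) and Igf1 (32.1) were last. By mean level per kilobase Igf2 had place 4 in Rnf40+/+ and place 8 in Rnf40-/- MEFs, and the first of these places rested on Rnf40+/+ replicate 3 (1385 per kilobase, against 776 and 817 in the other libraries). The annotated transcript of Igf1r (4181 bases, of which 4107 are coding) holds almost no untranslated sequence, so its place is uncertain.

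**Figure D3:**
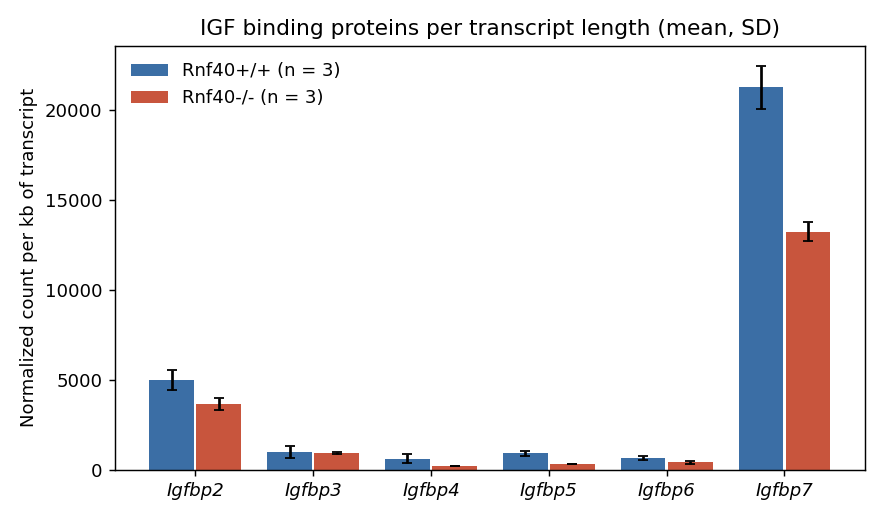
Normalized count per kilobase of transcript for the 6 binding proteins, as the mean of 3 libraries with SD, Rnf40+/+ in blue and Rnf40-/- in red. Igfbp7 is the tallest pair of bars, and the difference in its bars is larger than the whole level of any other binding protein, at 21271 against 13239.

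The summed level of the 6 binding proteins per kilobase was 29408 ± 1353 in Rnf40+/+ and 18760 ± 871 in Rnf40-/- MEFs (SD, n = 3 each), or 63.8% of it. Without Igfbp7 the sum was 8137 ± 181 and 5521 ± 338, or 67.9%, and the summed ligands were 1026 ± 348 and 342 ± 39.7, or 33.3%. Within the sum of all 6, Igfbp7 held 72.3% ± 0.72 and 70.6% ± 0.48, and Igfbp2 held 17.0% ± 1.16 and 19.4% ± 0.90. The share of Igfbp5 went from 3.12% ± 0.58 to 1.70% ± 0.13. The share of Igfbp4 went from 2.06% ± 0.83 to 1.14% ± 0.09, that of Igfbp3 from 3.33% ± 1.31 to 5.00% ± 0.38, and that of Igfbp6 was 2.21% ± 0.36 and 2.15% ± 0.30. The Rnf40-/- shares of Igfbp4, Igfbp5 and Igfbp7 lay below their Rnf40+/+ ranges, and those of Igfbp2 lay above. For Igfbp7 and Igfbp2 the gap was narrow, and the shares of Igfbp3 and Igfbp6 overlapped. These sums and shares are descriptions without a test. They refer to RNA, and the amount of protein in the medium was not measured.

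The rest of the pathway was described from 9 lists with 94 genes, of which 82 were tested. Of these, 32 (39%) were higher and 23 (28%) lower, against 23.3% and 24.1% of all genes, and their median log2FC was 0.12. Large changes in opposite directions were seen among proteases that cut IGFBPs and their inhibitors, where 7 of 14 tested genes were higher and 6 lower. Pappa, which codes for the protease PAPP-A that cuts IGFBP4, had 2818, 3036 and 2776 normalized counts in Rnf40+/+ and 1241, 1121 and 1103 in Rnf40-/- libraries, a log2FC of -1.32 (adjusted p = 7.15e-08 by limma). Pappa2, a related protease that cuts IGFBP3 and IGFBP5, went the other way, from 50.2, 38.8 and 46.3 to 192, 218 and 213 normalized counts, a log2FC of 2.19 (adjusted p = 1e-06 by limma). Both groups of values were tight, and on the scale of normalized counts Pappa stayed above Pappa2 in every library.

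The stanniocalcins, which are secreted inhibitors of these proteases, fell too, with 1 Rnf40+/+ library well above the rest. Stc2 had 465, 72.4 and 93.4 normalized counts in Rnf40+/+ and 43.8, 31.3 and 36.8 in Rnf40-/- libraries, and Stc1 had 1647, 565 and 444 against 301, 292 and 327. Rnf40+/+ replicate 1, which was also the high library for Igfbp4, was the high one for both. The skeletal muscle markers were also highest in this library, with sums of 4881, 2032 and 1709 normalized counts in Rnf40+/+ and 438 to 496 in Rnf40-/- libraries. These sums came almost wholly from Acta1 and Des, with Myod1 at 0, and the part of such cells in Igfbp4, Stc1 and Stc2 was not tested. The log2FC of Stc2 was -1.96 (adjusted p = 0.00826 by limma) and -1.13 without Rnf40+/+ replicate 1 (adjusted p = 0.00263 by limma). That of Stc1 was -1.28 (adjusted p = 0.00945 by limma) and -0.71 without it (adjusted p = 0.000434 by limma). Adam12, which codes for a protease that cuts IGFBP3 and IGFBP5, fell by 1.08 in log2 (adjusted p = 1.07e-06 by limma).

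**Figure D4:**
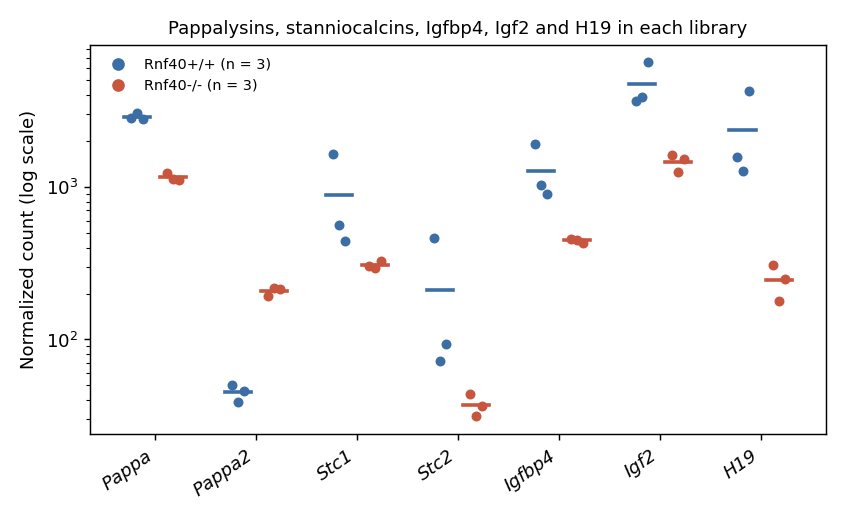
Normalized count (log scale) in each library of the pappalysin genes Pappa and Pappa2, the stanniocalcin genes Stc1 and Stc2, and Igfbp4, Igf2 and H19, with a bar at the mean of 3. Pappa2 is the only one of these 7 genes with the Rnf40-/- libraries on top (192 to 218 against 38.8 to 50.2). The Rnf40+/+ library that stands above the others is replicate 1 for Stc1, Stc2 and Igfbp4, and replicate 3 for Igf2 and H19.

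Proteins that carry an IGFBP domain outside the classical family had 3 of 11 tested genes higher and 3 lower. These shares of 27.3% each were near the 23.3% and 24.1% of all genes. Wisp2 and Wisp1, which code for matricellular proteins of the CCN family, fell with log2FC values of -1.60 and -1.23 (adjusted p = 2.16e-07 and 1.13e-07 by limma). Htra4, a secreted serine protease, rose from 11.9, 16.3 and 20.0 to 51.0, 54.3 and 35.9 normalized counts, a log2FC of 1.50 (adjusted p = 0.00166 by limma). Of the partners of IGFBPs, the 3 tested genes all passed the test in one direction or the other, as did 47.4% of all genes. Tmem219, which codes for a receptor of IGFBP3, fell by 1.14, Lrp1, which codes for an endocytic receptor, fell by 0.61, and Cd93, which codes for an endothelial receptor of IGFBP7, rose by 1.09 in log2. Of the 5 endothelial markers tested, Cdh5, Pecam1 and Kdr were higher (log2FC 3.26, 2.58 and 1.56), Emcn was lower (-1.15) and Tek did not pass the test. In Rnf40+/+ libraries Cdh5 (0.80 to 5.10 normalized counts) and Pecam1 (2.40 to 4.78) lay near the limit of detection. In Rnf40-/- libraries they had 23.6 to 39.7 and 18.9 to 35.5, so the size of these 2 rises is uncertain. The endothelial list summed to between 146 and 282 normalized counts in Rnf40+/+ and between 234 and 333 in Rnf40-/- libraries, which overlap. The highest Rnf40+/+ sum, that of replicate 1, came mostly from Emcn (136) and Tek (115). Taken singly, Cdh5, Pecam1 and Kdr (higher) and Emcn (lower) did not overlap between the genotypes, and Tek did. The part of endothelial cells in Cd93 was not tested.

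Downstream of the receptors, no gene of the next 2 lists met the study's criteria, applied to limma values, which ask for a change above 1 in log2. Of 26 genes of the PI3K, AKT, mTOR and FOXO steps, 15 were higher (57.7%), 2 lower (7.69%) and 9 did not pass the test. Of all genes, 23.3% were higher and 24.1% lower. The median log2FC of this list was 0.26. Pik3cb, a catalytic subunit of PI3K, had the largest rise in this list, 0.96 (adjusted p = 0.000127 by limma), and Mlst8, a subunit of mTOR complexes, the largest fall, -0.70 (adjusted p = 0.000139 by limma). Of the receptor adaptors and brakes, 4 of 14 were higher (28.6%) and 5 lower (35.7%), not far from the shares of all genes. They ran from Gab1, a docking protein, at 0.82 (adjusted p = 4.67e-06 by limma) to Grb14, an inhibitor of the insulin receptor, at -0.89 (adjusted p = 1.39e-06 by limma). The insulin receptor gene Insr had a log2FC of 0.09 (adjusted p = 0.31 by limma) and was the 1 gene tested of its list, as Ins1, Ins2 and Igfals were at 0 in every library.

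Of the IGF2 mRNA-binding proteins and LIN28 genes, 2 of 5 tested were lower (40%, against 24.1% of all genes). Hmga2, a chromatin protein known to raise Igf2bp2 expression, fell by 0.98 in log2 (adjusted p = 1.27e-06 by limma). Igf2bp2 itself had a log2FC of 0.05 and did not pass the test (adjusted p = 0.594 by limma). The other gene called lower was Igf2bp1, with a log2FC of -0.22 (adjusted p = 0.0288 by limma). Lin28b, with 5.59 to 17.7 normalized counts, had the highest log2FC, 0.73, without passing the test (adjusted p = 0.219 by limma). Of the genes that tag or sort lysosomal enzymes with mannose 6-phosphate, the second task of IGF2R, 2 of 7 were higher and 2 lower. These shares of 28.6% each were near the 23.3% and 24.1% of all genes. Gnptg, a subunit of the enzyme that makes the tag, rose by 0.42 (adjusted p = 0.00182 by limma), and Gga2, an adaptor that sorts the receptors, fell by 0.85 in log2 (adjusted p = 0.000116 by limma).

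**Figure D5:**
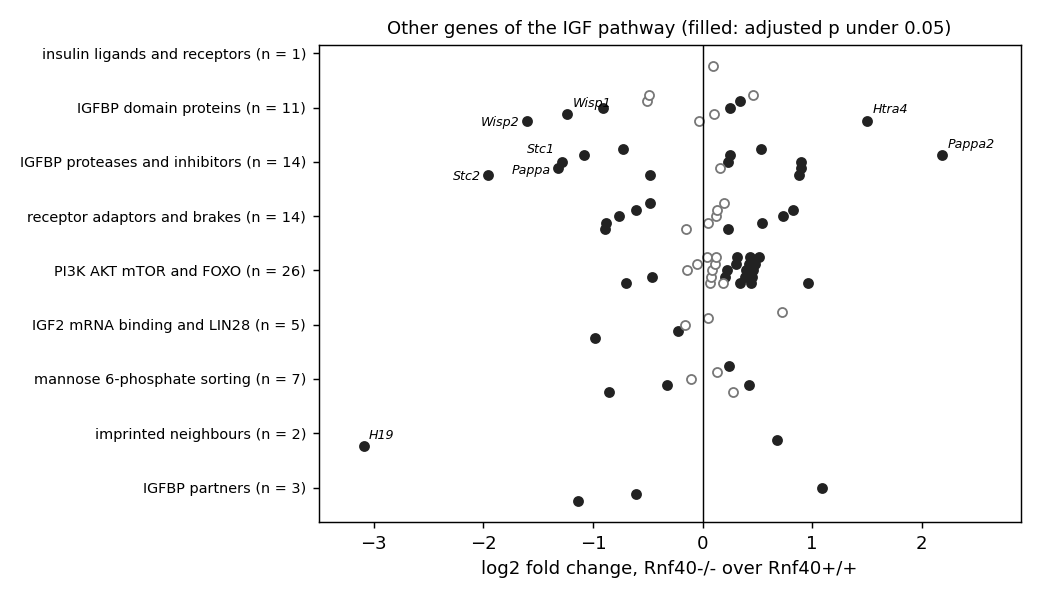
log2 fold change (Rnf40-/- over Rnf40+/+) of the tested genes in the 9 lists of other pathway genes, 1 point per gene, filled where the adjusted p is under 0.05. Pappa2 (2.19) and H19 (-3.09) are the outermost points, and most filled points of the PI3K, AKT, mTOR and FOXO list lie between 0 and 1.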

How the data were processed

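Per the labels and the study's methods, the authors aligned reads to mm9 transcripts and scaled the counts by DESeq, and each deposited signal value is a read count over its library's size factor. The submitters' processing notes name Bowtie2 (version 2.1.0) and DESeq (version 1.14.0). The counting tool and its strand setting are not given in the sources used here. In each library division by the smallest positive value returned whole reads for 100% of entries (tolerance 0.01 reads).

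Genotypes were compared with limma (version 3.58.1, lmFit and eBayes with trend) on log2(normalized count + 1), which understates changes of low genes, with Benjamini-Hochberg adjustment over the 16378 genes that passed filterByExpr of edgeR (version 4.0.16) on the recovered reads. The quasi-likelihood test of edgeR and the Wald test of DESeq2 (version 1.42.0) on these reads were among the alternatives, and edgeR called 3857 genes higher and 3940 lower. An exact permutation test of 3 against 3 libraries has 0.1 as its smallest p and was not used. Positions and transcript lengths are from GENCODE for NCBIM37, the assembly of mm9.

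Named are all 10 members and, from the other lists, genes called at 0.05 whose log2 fold change exceeded 1 in size, and the largest rise and fall of each list. Lrp1, Igf2as, Igf2bp1, Igf2bp2, Igfbp1, the cell type markers and the sex-linked genes were named after their values were seen. The members and lists were chosen with earlier results of these data known. R (version 4.3.3) and Python (version 3.11.15) were used. ChIP-seq was not analysed.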

Additional observations from a re-analysis of the deposited data

How the results depend on the processing

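Over 15 alternatives (TMM and upper-quartile scaling, DESeq2 and edgeR on the recovered reads, 2 other filters, pseudocounts of 0.1 and 10, the replicate block, and each library left out), the 6 members called lower numbered 6 each time. The number called higher was 1 under all but 1 of them, and with each library left out it ranged from 1 to 2, the added gene being Igfbp3 without Rnf40+/+ replicate 3. Of 150 values for single members, 143 kept their direction and their side of the threshold. The log2 fold change of Igfbp3 turned to -0.041 with DESeq2 and -0.048 with edgeR, and ranged from -0.165 to 0.269 with each library left out (-0.089, -0.165 and -0.027 when Rnf40+/+ replicate 1, Rnf40+/+ replicate 2 or Rnf40-/- replicate 2 was omitted). That of Igf1 ranged from -0.143 to 0.11, its value without Rnf40+/+ replicate 3. For the number of genes called, higher and lower, over all genes (3051 to 4021 and 3342 to 4196) and over the other pathway genes (25 to 33 and 22 to 24), no alternative moved the count by over 1.5 times.

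Replicate numbers are shared between the genotypes, but deviations of same-numbered libraries had correlations of 0.0118, 0.0174 and 0.0212, so the numbers were not taken as pairs. With the replicate block, Igf2 had a log2 fold change of -1.64, and 1 member was higher and 6 were lower. With the union of exons as length, Igfbp7 held 76.9% of the binding protein sum in Rnf40+/+ and 75.9% in Rnf40-/-, Igfbp2 held 12.8% and 14.8%, and Igfbp3 held 4.16% in Rnf40-/-. With 3 libraries a genotype, the 95% intervals spanned log2 fold changes from -0.36 to 0.26 for Igf1 and from -0.36 to 0.37 for Igfbp3.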
